A study of Homo sapiens with 34 samples.

Results

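The genes of MHC class II antigen presentation were followed across 34 established human B-cell lymphoma cell lines. The members were the table rows with 10 gene names, out of 31975 genes in all: CIITA, HLA-DRA, HLA-DRB1, HLA-DPA1, HLA-DPB1, HLA-DQA1, HLA-DQB1, HLA-DMA, HLA-DMB and HLA-DOB. All 10 passed the filter on low values that left 22167 genes for testing. The lines comprised 11 of mantle cell lymphoma (MCL), 3 of Burkitt lymphoma (BL), 6 of diffuse large B-cell lymphoma (DLBCL) of activated B-cell-like origin (ABC DLBCL) and 14 of germinal centre B-cell-like origin (GCB DLBCL). Each line gave 1 library from total RNA, the labels name no treatment, and the libraries were made at several time points. Of the 34 libraries 30 are marked as re-analysed and 4 (Daudi, HBL-2, MAVER-1 and UPN1) are not. A pathology has its lines as replicates, and a p-value therefore weighs a difference between pathology means against the spread of lines. Growth conditions are not given in the sources used here.

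MHC class II molecules are pairs of an alpha and a beta chain that show peptides from the endosomal pathway to CD4+ T cells, and B cells carry them at all times. The DR, DP and DQ chains form the presenting molecules, HLA-DM exchanges the peptide in their groove, and HLA-DO restrains HLA-DM in B cells. CIITA is the master coactivator of these genes. It binds no DNA itself but sits on a complex of RFX, CREB and NF-Y factors at their promoters, and its loss, or loss of class II, is a known feature of some B-cell lymphomas.

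Values are variance-stabilised read counts in log2 units, in which 4.55 stands for 0 reads, and the transform compresses differences near that floor. They are not scaled to gene length, so levels are compared between lines and not between genes. Whole reads were recovered from them, and M stands for 1e6 below. Library totals were 60.1 to 109 M for the MCL lines, 22.6 to 92.4 M for BL, 22.7 to 165 M for ABC DLBCL and 2.55 to 108 M for GCB DLBCL. A set of 9 libraries, 8 of GCB DLBCL with at most 4.84 M reads and NU-DUL-1 of ABC DLBCL, had 0 reads of ZNF593 and EMC6 and is called the second library class; the other 25 form the first. This class cannot be told apart from pathology in those 8 lines, so first-class values are given beside results that it touches. The summed B-cell markers MS4A1, CD79A, CD79B and PAX5 lay between 1089 and 5362 reads per M in MCL, 2265 and 2692.5 in BL, 1505.5 and 3921 in ABC DLBCL, and 1036 and 5263 in GCB DLBCL. Markers of myeloid cells, which also carry class II, summed to at most 5.88 reads per M in any line, and those of T cells to at most 24.1, in REC-1.

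The promoters of the class II genes share a pair of short elements, the X box bound by RFX and the Y box bound by NF-Y, which CIITA needs to act. RefSeq promoters on GRCh38.p14, 250 bases before to 50 after a start, were matched for 8 of the 10 members, with 2 for HLA-DPA1; HLA-DRA and CIITA are the members named only. The letters AGNAAC of the X box, followed by ATTGG of the Y box with 15 to 45 bases between them on either strand, were in 2 of the 8, and in 1.39% of all 35116 promoters. With the X letters relaxed to AGNNAC, a choice made after the sequences were seen, the pair was in 5 of the 8, against 4.67% of all promoters; that of HLA-DPB1 was on the other strand. ATTGG or CCAAT alone was in 7 of the 8, against 34.6% of all promoters. The 4 stretches below show the pair on the gene's own strand, with the X and Y letters in capitals, at chr6:32589875-32589942 (minus strand), chr6:32637289-32637357 (plus), chr6:32666726-32666793 (minus) and chr6:32953157-32953225 (minus), in that order.
HLA-DRB1: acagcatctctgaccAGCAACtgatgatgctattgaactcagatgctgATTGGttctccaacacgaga
HLA-DQA1: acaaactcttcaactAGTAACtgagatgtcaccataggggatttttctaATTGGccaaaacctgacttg
HLA-DQB1: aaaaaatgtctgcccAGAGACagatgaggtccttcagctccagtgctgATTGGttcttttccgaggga
HLA-DMA: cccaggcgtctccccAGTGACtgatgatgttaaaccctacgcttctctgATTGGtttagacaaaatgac
The pair was 27 bases apart in HLA-DRB1 and HLA-DQB1 and 28 apart in HLA-DQA1 and HLA-DMA. A match of letters describes these windows and is no evidence of binding.

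CIITA, on chromosome 16 (10866206 to 10943021, GRCh38.p14), stood at 9.38 or above in all lines but the GCB DLBCL line DB, at 6.89. In the 11 MCL lines it ran between 10.21 in JVM2 and 12.76 in MAVER-1, with a median of 11.94. The 3 BL lines had 12.05 in Raji, 11.57 in Daudi and 10.02 in Ramos. The 6 ABC DLBCL lines ran between 11.42 in OCI-Ly3 and 13.14 in NU-DUL-1, with a median of 12.30. The 14 GCB DLBCL lines held both ends of the whole range, with 6.89 in DB, a median of 12.06 and 14.01 in NU-DHL-1. The pathologies overlapped throughout, and no difference passed the test, the widest being that of BL minus ABC DLBCL, at -1.13 ± 0.93 (SE, adjusted p = 0.856).

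HLA-DRA was the most variable of the members from line to line, and the lowest lines came from more than 1 pathology. HLA-DRA encodes the single DR alpha chain and lies on chromosome 6 (32439887 to 32445046, GRCh38.p14), as do all members but CIITA. Its values ran from 5.37 in REC-1 through a median of 15.65 to 18.55 in JVM2 in MCL. They were 16.69 in Raji, 15.16 in Ramos and 14.86 in Daudi in BL. In ABC DLBCL they ran from 11.40 in OCI-Ly10 through 15.35 to 15.62 in MD903, and in GCB DLBCL from 4.55 in OCI-Ly1 through 14.95 to 17.39 in Pfeiffer. The medians of the 4 pathologies thus lay close together while single lines fell far below them. The SD of HLA-DRA over the 34 lines was 3.13, higher than that of 99.7% of the genes tested, against a median SD of 0.70 over all genes. HLA-DRB1, a DR beta chain, had an SD of 2.63, the DP chains HLA-DPA1 and HLA-DPB1 2.41 and 2.44, and the DQ chains HLA-DQA1 and HLA-DQB1 2.57 and 2.73, each higher than that of at least 98.0% of genes. The SD was smaller for HLA-DMA (1.10), HLA-DMB (1.33), CIITA (1.35) and HLA-DOB (1.43).

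**Figure D1:**
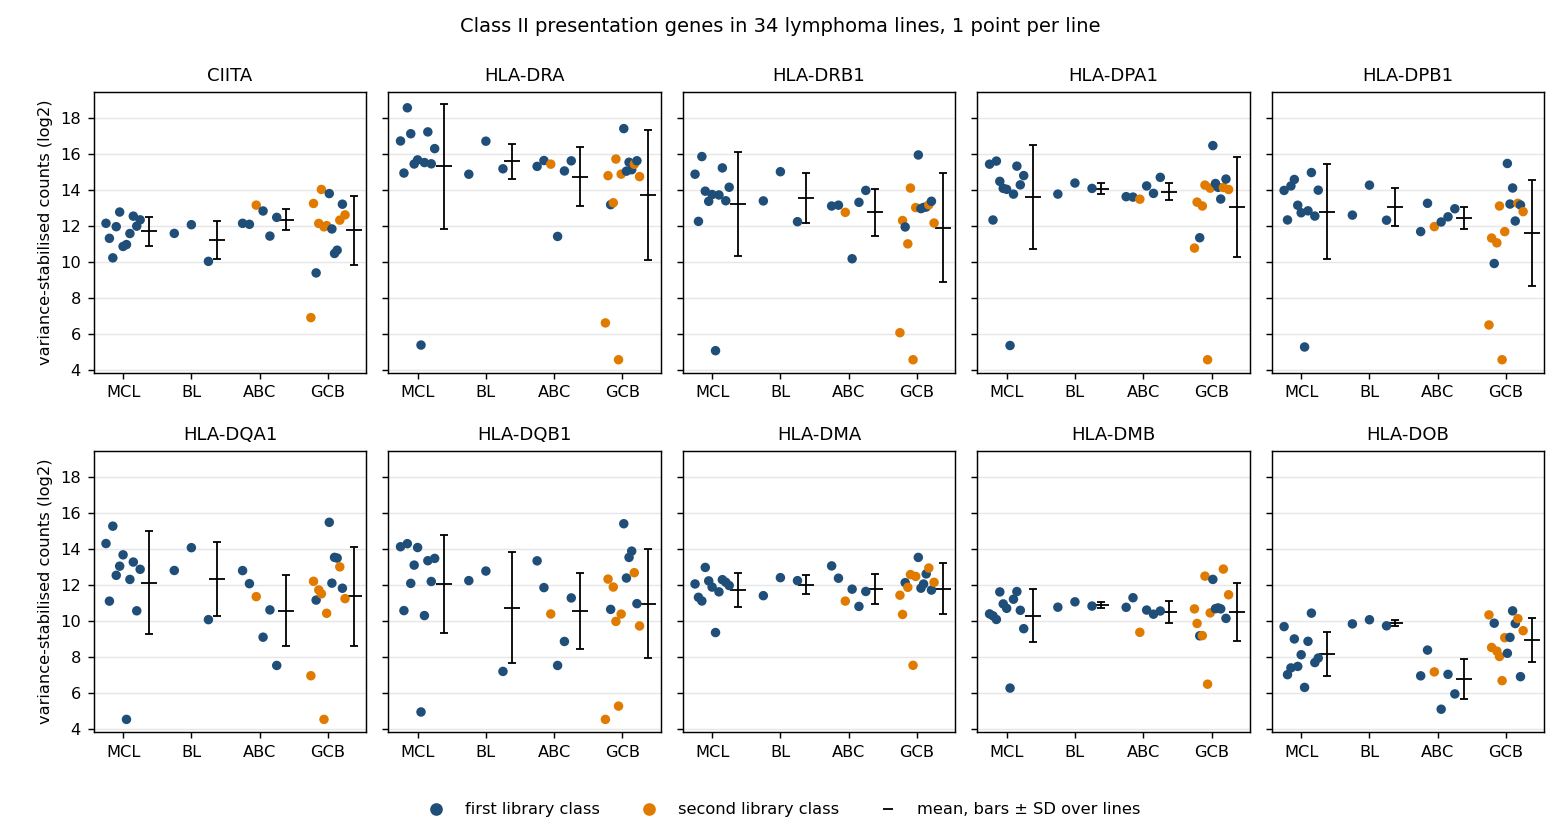
Values of the 10 members (variance-stabilised counts, log2) in each of the 34 lines by pathology, with the mean ± SD over lines and colours for the 2 library classes. In MCL and GCB DLBCL 3 lines lie below all others for the 6 DR, DP and DQ chains, though for HLA-DPA1 DB, at 10.76, is close to HT, at 11.33, while HLA-DOB is lowest on average in ABC DLBCL and between 9.75 and 10.09 in the 3 BL lines.

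No member was called in any pairwise contrast at an adjusted p under 0.05 by limma. In MCL against GCB DLBCL 0 of 10 members were called, where 23.7% of all genes were, 2436 higher and 2809 lower in MCL. Unadjusted p-values under 0.05 also numbered 0 there, the median difference of the members was 0.65 and that of all genes was -0.02. The sign of the members' median rested on the second library class and on the tool, as it was -0.40 in the first class and -0.08 with limma-voom on recovered reads. The split of all called genes moved with the scaling, to 1473 higher and 4429 lower after median-centring, which shifted the median of all genes to -0.17, and to 892 higher and 1727 lower with limma-voom, where that median was -0.27. In the first class 346 genes were higher and 282 lower. For MCL against ABC DLBCL 0 of 10 were called, against 0.69% of all genes, and for MCL against BL 0 of 10, against 1.17%. For BL against ABC DLBCL the count was 0 of 10, against 0.117% of all genes, for BL against GCB DLBCL 0 of 10, against 0.153%, and for ABC against GCB DLBCL 0 of 10, against 0.726%. HLA-DOB was the member with an unadjusted p under 0.05 in 4 of these contrasts, and no other member had one in any of the 6. The F test over the 4 pathologies called 1 of 10 members, HLA-DOB, against 13.2% of all genes. In the first library class alone 2.83% of genes were called in MCL against GCB DLBCL and 3.55% by the F test, with 0 members in either.

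HLA-DRA shows how wide these comparisons were. It averaged 15.29 ± 3.46 in the 11 MCL lines and 13.69 ± 3.61 in the 14 GCB DLBCL lines, a difference of 1.59 ± 1.21 (SE, adjusted p = 0.336). In first-class libraries the GCB DLBCL mean was 15.30 ± 1.35 (SD, n = 6) and the difference was -0.02, so its direction rested on the second library class, which holds OCI-Ly1 and DB. HLA-DRB1 differed by 1.33 ± 1.02 between MCL and GCB DLBCL (adjusted p = 0.340) and HLA-DPB1 by 1.18 ± 0.94 (adjusted p = 0.365). In first-class libraries both turned, with HLA-DRB1 at 13.22 in MCL and 13.37 in GCB DLBCL, and HLA-DPB1 at 12.77 in MCL and 13.01 in GCB DLBCL. These standard errors are near the size of the differences, so the data bound the differences of the chains only loosely.

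HLA-DOB, the beta chain of the HLA-DO modulator, was the only member of 10 that the F test called, where 13.2% of all genes were called. Its mean was lowest in ABC DLBCL. The 3 BL lines had 10.09 in Raji, 9.86 in Daudi and 9.75 in Ramos. The 6 ABC DLBCL lines had 5.12 in OCI-Ly10, 5.97 in SU-DHL-8, 6.97 in HBL-1, 7.05 in OCI-Ly3, 7.19 in NU-DUL-1 and 8.40 in MD903. Every BL line lay above every ABC DLBCL line, in groups of only 3 and 6 lines. How many of all genes part these groups in this way was not counted. The MCL lines ran from 6.33 in REC-1 through a median of 7.96 to 10.46 in SP-53, and the GCB DLBCL lines from 6.70 in OCI-Ly1 through 9.10 to 10.58 in SU-DHL-4. Both ranges overlapped those of BL and ABC DLBCL. Means were 8.20 ± 1.22 in MCL, 9.90 ± 0.17 in BL, 6.78 ± 1.13 in ABC DLBCL and 8.95 ± 1.21 in GCB DLBCL (SD, n = 11, 3, 6 and 14), and the F test gave an adjusted p of 0.0169 (limma).

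The pairwise differences of HLA-DOB stayed short of the threshold. ABC minus GCB DLBCL was -2.17 ± 0.55 (SE, adjusted p = 0.0514), BL minus ABC DLBCL was 3.11 ± 0.80 (adjusted p = 0.110), MCL minus ABC DLBCL was 1.41 ± 0.57 (adjusted p = 0.314) and MCL minus BL was -1.70 ± 0.73 (adjusted p = 0.332). The order of the means was BL, GCB DLBCL, MCL and ABC DLBCL, and no neighbours in it differed past the threshold. The F test of HLA-DOB lost its call in the first library class (adjusted p = 0.0725) and without libraries under 10 M reads (0.0574). OCI-Ly10, the lowest ABC DLBCL line, had 7 reads of HLA-DOB and carries a low stretch of the class II region described below; without it the F test gave an adjusted p of 0.0437.

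The large class II changes belonged to single lines. A member was counted as low in a line where it lay more than 3 log2 units below its own median over the 34 lines. By this count 27 lines had no low member among the 9 other than CIITA, 7 had at least 1, and 3 lines had 5 or more, namely OCI-Ly1 with 8, REC-1 with 7 and DB with 6. OCI-Ly1 and DB are GCB DLBCL lines and REC-1 is an MCL line. The 3 values nearest the limit on either side were -3.13 for HLA-DQB1 in OCI-Ly3 inside, and -2.99 for HLA-DRB1 and for HLA-DQA1 in OCI-Ly10 outside. These lines are defined by the values themselves, so they are described singly and were not tested as a group. In bulk RNA, fewer cells with a transcript and less RNA per cell cannot be told apart.

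**Figure D2:**
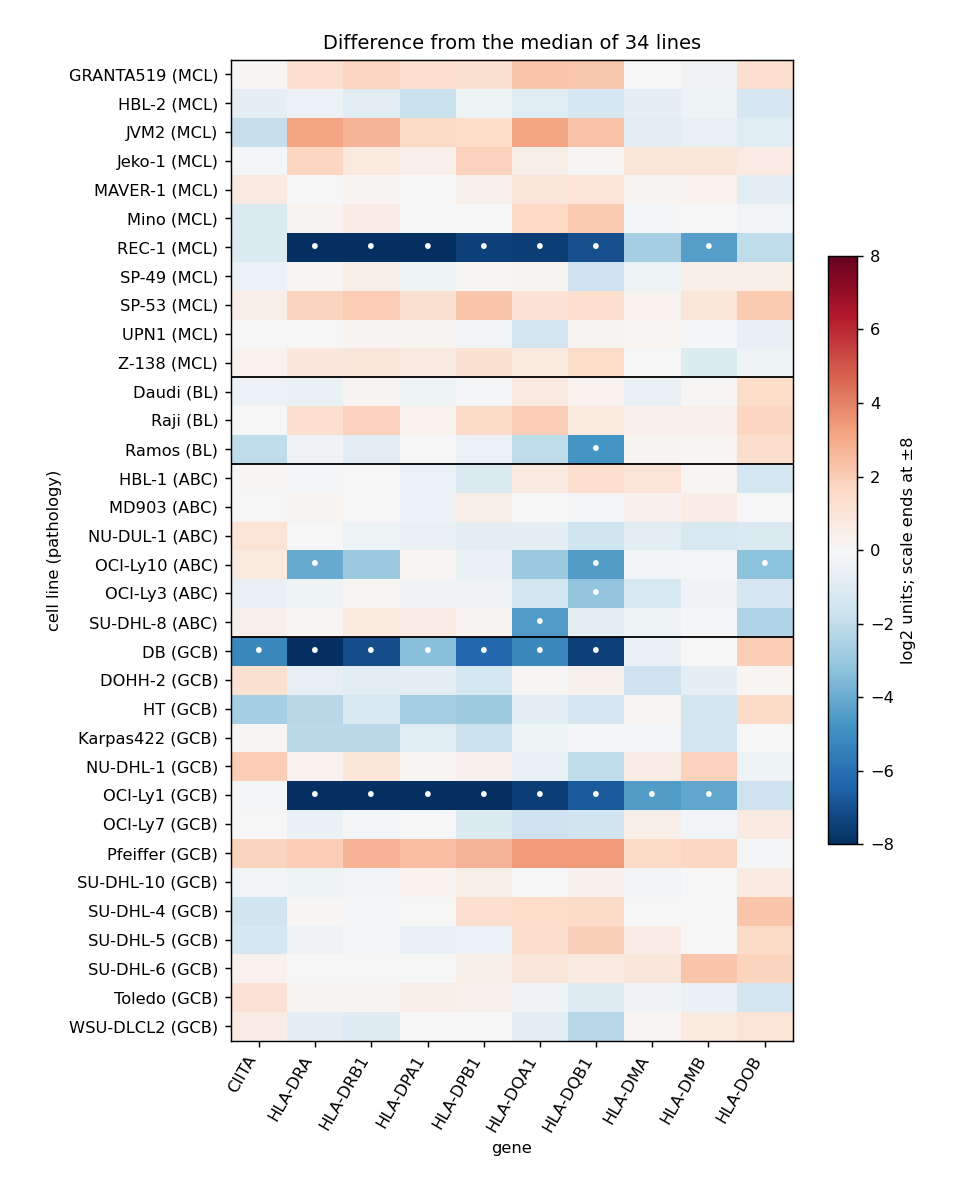
Difference of each member from its median over the 34 lines (log2 units, colour), with lines in rows by pathology and members in columns; a white dot marks a value more than 3 units below the median. REC-1, DB and OCI-Ly1 are low for all 6 DR, DP and DQ chains, and CIITA carries a dot in DB alone.

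OCI-Ly1 had almost no class II transcripts. It had 0 reads of HLA-DRA, HLA-DRB1, HLA-DPA1, HLA-DPB1 and HLA-DQA1 and 1 read of HLA-DQB1 in a library of 4.84 M reads. Scaled for depth and set against the median line, HLA-DRA was at least 2320-fold lower and HLA-DPA1 at least 913-fold lower, counting 0 reads as 3. The DM genes were low as well, with 23 reads of HLA-DMA, 28.7-fold below the median line (95% counting interval 19.1 to 45.3), and 8 reads of HLA-DMB, 32.1-fold below it (16.3 to 74.2). HLA-DOB had 10 reads and lay 4.57-fold below the median line (2.49 to 9.53). Counting intervals here cover counting error only.

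REC-1 showed the same loss at far greater depth, 89.5 M reads. Its HLA-DRA had 16 reads, 5673-fold below the median line (3493 to 9925), against 411485 reads in JVM2, the highest MCL line. HLA-DRB1 had 6 reads, HLA-DPA1 15, HLA-DPB1 12 and HLA-DQB1 4, and HLA-DQA1 had 0, at least 3026-fold below the median line. HLA-DMB, with 80 reads, was 41.8-fold below it (33.6 to 52.7). HLA-DMA was reduced less, with 1288 reads and a fold of 6.68 (6.33 to 7.06), and HLA-DOB lay 7.10-fold below the median line. The 10 other MCL lines all had HLA-DRA at 14.92 or above.

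DB differed from both in what it kept. The DR, DP and DQ chains were low, with 8 reads of HLA-DRA, 784-fold below the median line (398 to 1816), 4 of HLA-DRB1, 7 of HLA-DPB1, 12 of HLA-DQA1 and 0 of HLA-DQB1, in 4.07 M reads. HLA-DPA1 kept 242 reads and was 10.2-fold lower (8.99 to 11.6). HLA-DMA had 396 reads, 1.5-fold below the median line, and HLA-DMB had 231 reads, within counting error of it (interval of the fold 0.879 to 1.14). HLA-DOB, at 10.36, was the third highest of the 34 lines. HLA-DPA1 and HLA-DPB1 overlap in the annotation and the strand setting of the counting is not given in the sources used here, so the share of each in such low counts is uncertain.

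The CIITA level separated DB from the other 2. DB had 11 reads of CIITA, 54.0-fold below the median line (30.2 to 108). OCI-Ly1 had 618 reads at a value of 11.94, 1.07-fold below the median line (0.986 to 1.16). REC-1 had 4020 reads at 10.95, 2.14-fold below it (2.07 to 2.21). With the DR, DP and DQ chains low in all 3, the CIITA transcript was at about the median level in OCI-Ly1, somewhat under it in REC-1 and strongly reduced in DB.

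**Figure D3:**
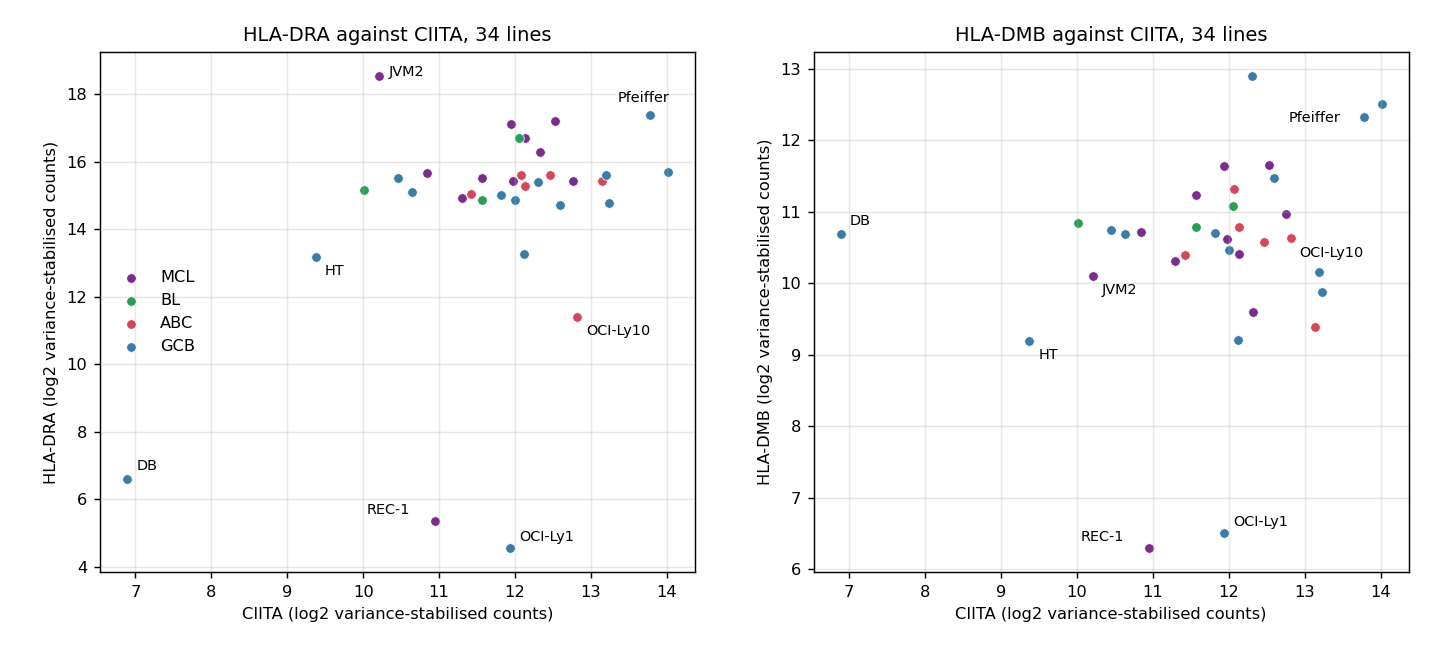
HLA-DRA (left) and HLA-DMB (right) against CIITA, log2 variance-stabilised counts, 1 point per line, coloured by pathology. For HLA-DRA, DB is low on both axes, REC-1 and OCI-Ly1 are low with CIITA at 10.95 and 11.94, and JVM2 has the highest HLA-DRA at a CIITA of 10.21.

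The correlation of CIITA with the chains was weak to moderate and changed with the set of lines. Over 34 lines Pearson's r with CIITA was 0.38 for HLA-DRA, 0.42 for HLA-DPB1, 0.31 for HLA-DPA1, 0.24 for HLA-DQA1 and -0.36 for HLA-DOB, with Spearman's rho of 0.25, 0.26, 0.37, 0.12 and -0.29 in the same order. Without DB and HT, the 2 lines farthest from the CIITA median, r was 0.10 for HLA-DRA and 0.16 for HLA-DPB1, so those values rested on these 2 lines. Over the 27 lines with no low member r was 0.16 for HLA-DRA, 0.40 for HLA-DPA1, -0.09 for HLA-DQA1 and -0.13 for HLA-DQB1. Over the 20 of these in the first library class, a set chosen after the data were seen, it was 0.36, 0.59, 0.13 and 0.18 in the same order. In those 20 lines r was 0.54 for HLA-DPB1, 0.40 for HLA-DRB1 and 0.55 for HLA-DMB, against 0.26, 0.15 and 0.37 over the 27. These correlations are descriptions over lines that share library class and depth within a class. HT, at the second lowest CIITA of 9.38, had HLA-DRA at -2.25 from the median, HLA-DPA1 at -2.74 and HLA-DPB1 at -2.85. Ramos, at 10.02, kept HLA-DRA at 15.16 and was low for HLA-DQB1, at 7.22. JVM2, at 10.21, had the highest HLA-DRA of all lines, and Pfeiffer, at 13.78, had the highest HLA-DRB1, HLA-DPA1, HLA-DPB1, HLA-DQA1, HLA-DQB1 and HLA-DMA.

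The DR, DP and DQ chains varied together from line to line, and HLA-DOB did so least. Over the 27 lines with no low member r was 0.93 between HLA-DRA and HLA-DRB1, 0.87 between HLA-DRA and HLA-DPB1, 0.85 between HLA-DPA1 and HLA-DPB1 and 0.86 between HLA-DQA1 and HLA-DQB1. It was 0.70 between HLA-DRA and HLA-DQA1 and 0.63 between HLA-DMA and HLA-DMB. With HLA-DRA, r was 0.19 for HLA-DMA, 0.38 for HLA-DMB and -0.06 for HLA-DOB. Over all 34 lines the r of HLA-DRA with HLA-DMA was 0.70 and that with HLA-DMB 0.69, values that hold the lines with losses. HLA-DRB1 shares sequence with HLA-DRB5, and HLA-DQA1 and HLA-DQB1 with HLA-DQA2 and HLA-DQB2, and these genes are highly polymorphic, so reads may be split among copies or lost to mismatches in a line-dependent way. That limit applies to the single-gene losses of HLA-DQB1 in Ramos (152 reads) and OCI-Ly3 (1640 reads) and of HLA-DQA1 in SU-DHL-8 (352 reads).

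Transcripts of the partners of CIITA on DNA were detected in all 3 lines with the widest loss, and their proteins were not measured. RFX5, the subunit of RFX that contacts DNA, was 12.48 in OCI-Ly1 and 11.80 in REC-1, against a median of 12.04, and in DB it was lowest of the 34 lines, with a difference of -1.04 from that median. RFXANK was 10.45 in OCI-Ly1, 11.91 in REC-1 and 10.35 in DB, against a median of 10.91, and RFXAP 8.08, 8.76 and 8.92 in the same lines, against 9.11. Across the enhanceosome list, which adds NFYA, NFYB, NFYC and CREB1, the lowest difference from the median in these 3 lines was -1.13, for CREB1 in REC-1. Among regulators of CIITA, IRF1, an interferon-induced activator of the gene, had 12 reads in DB and 15 in OCI-Ly1, differences of -3.25 and -3.13 from the median, and was 0.11 above it in REC-1. It was about as low in 4 more second-class GCB DLBCL lines, SU-DHL-6 (-3.05), WSU-DLCL2 (-2.69), Karpas422 (-2.68) and OCI-Ly7 (-2.42), none of which had 5 or more low members. PAX5, a B-cell factor, was within 0.53 of the median in all 3. Next to CIITA on chromosome 16, NUBP1 differed by -2.45, CLEC16A by -0.85, SOCS1 by -1.73 and RMI2 by -1.99 from the median in DB. TVP23A, with 5 reads there, was at 0.69, and SOCS1 was lower in REC-1, at -2.46. NUBP1 was below its median in every library of the second class, from -2.45 in DOHH-2 to -0.84 in NU-DHL-1. DEXI had 0 reads in DB and 1 in OCI-Ly1, but at most 9 in any library of that class, in NU-DUL-1.

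Other class II genes were reduced in the 3 lines as well, to unequal extents. The invariant chain CD74, which blocks the groove until the endosome, was lowest of the 34 lines in DB and second lowest in OCI-Ly1, at 13.66 in DB, 13.71 in OCI-Ly1 and 15.82 in REC-1, against a median of 17.11. These were folds of 10.95, 10.6 and 2.45 below the median line. HLA-DOA, the alpha chain of HLA-DO, had 0 reads in OCI-Ly1 and 0 in REC-1, at least 133-fold and at least 1729-fold below the median line, and 100 reads in DB, 3.58-fold below it. HLA-DRB5 had 0 reads in DB, 0 in OCI-Ly1 and 6 in REC-1.

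OCI-Ly10, an ABC DLBCL line with a CIITA of 12.82, had a different pattern that followed position on chromosome 6. It was low for HLA-DRA (11.40), HLA-DQB1 (7.55) and HLA-DOB (5.12), and just outside the limit for HLA-DRB1 and HLA-DQA1, while HLA-DPA1 (14.21), HLA-DPB1 (12.20), HLA-DMA (11.79) and HLA-DMB (10.63) lay between -0.54 and 0.14 from their medians. By reads HLA-DRA was 16.4-fold (15.9 to 16.9) and HLA-DQB1 28.5-fold (25.3 to 32.2) below the median line. Between HLA-DRA and HLA-DMB on the chromosome lie TAP1 and TAP2, the peptide transporter of class I, and PSMB8 and PSMB9, subunits of the immunoproteasome. In OCI-Ly10 TAP2 was -4.43 from the median, PSMB8 -4.25, TAP1 -3.29 and PSMB9 -3.29, each the lowest of the 34 lines. Among genes with a median of 8 or more, every one from HLA-DRA (start 32439887) to PSMB9 (end 32859851) differed from its median by -1.89 or less, and HLA-DQB2, with a median of 7.46, by -1.10, whereas HLA-DMB, starting at 32934636, was at -0.07. GPSM3, the nearest such gene on the far side of HLA-DRA, was at -0.33, and farther out AGPAT1 was at -1.44. The class I genes HLA-B and HLA-E, which are not in this stretch, were at -2.34 and 1.18 in OCI-Ly10. OCI-Ly1, REC-1 and DB were low for class II genes on both sides of the TAP and PSMB genes and had TAP1, TAP2, PSMB8 and PSMB9 between -2.35 and 1.52 from the median. The stretch was picked out after its values were seen, and DNA copy number was not measured here.

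**Figure D4:**
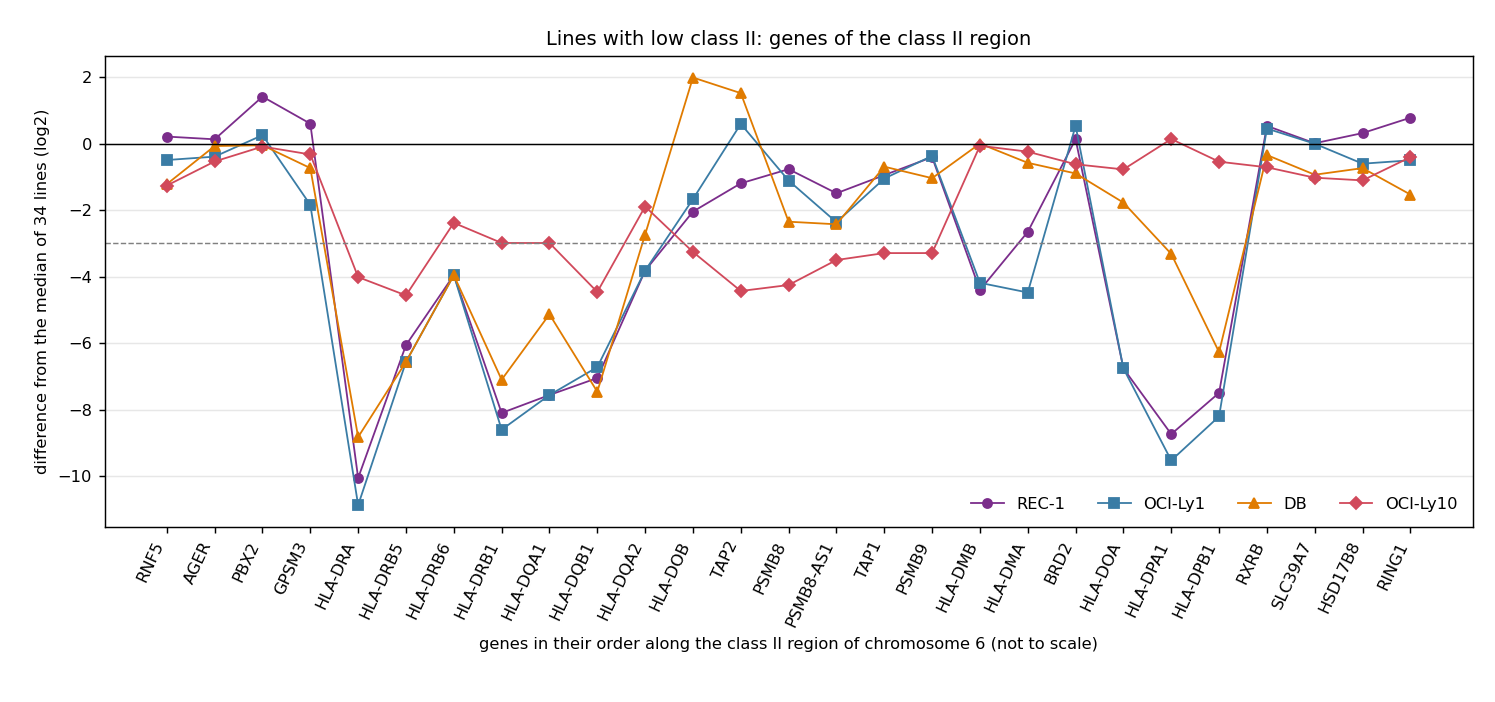
Difference from the median of 34 lines (log2) for genes with a median of 8 or more in their order along the class II region of chromosome 6, for REC-1, OCI-Ly1, DB and OCI-Ly10; the dashed line marks 3 units below the median. In OCI-Ly10 the low genes form a run between HLA-DRA and PSMB9, whereas in the other 3 lines class II genes on either side of TAP1, TAP2, PSMB8 and PSMB9 are low. Not all class II genes are low there. HLA-DOB is at -1.67 in OCI-Ly1, -2.04 in REC-1 and 1.98 in DB, HLA-DMA is at -2.65 in REC-1, and HLA-DMA (-0.58) and HLA-DMB (-0.0006) are within 3 units in DB.

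The genes most like HLA-DRA over the 34 lines, outside the members, included class I genes. Among the 8 with the highest r were HLA-E (0.90), HLA-DRB5 (0.89), HLA-DOA (0.84), CD74 (0.80), HLA-B (0.79), MR1 (0.76) and HLA-DRB6 (0.72), and CIITA stood at rank 732 of 22166. HLA-E, a class I molecule read by natural killer cells, had 2 reads in DB, 7 in OCI-Ly1 and 97 in REC-1, the 3 lowest values of all lines, at -7.15, -6.39 and -6.34 from the median. HLA-B, a classical class I heavy chain, was also lowest in DB, OCI-Ly1 and REC-1, at 6.36, 9.21 and 10.07 against a median of 14.66. MR1, which presents vitamin metabolites to T cells, had 0 reads in OCI-Ly1 and in REC-1 and 117 reads, near the median, in DB. JVM2 had the highest HLA-E, HLA-B and MR1, as it had the highest HLA-DRA. In the first library class r with HLA-DRA was 0.82 for HLA-E and 0.80 for HLA-B, and over the 27 lines with no low member it was 0.67 and 0.65. Over those 27 lines it was 0.82 for CD74, 0.63 for HLA-DRB6, 0.56 for HLA-DRB5, 0.55 for HLA-DOA and 0.34 for MR1. The 8 genes most like CIITA were NCOA2 (0.72), ZEB2 (0.68), ZSWIM6 (0.67), ANO6 (0.65), CYP2R1 (0.64), KLF13 (0.63), C3orf62 (0.62) and RP11-876N24.3 (0.61). In the first library class their r lay between 0.26 for ANO6 and 0.70 for ZEB2. Over the 34 lines the member most like CIITA, HLA-DPB1, stood at rank 288.

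Some genes of the wider pathway differed between pathologies. A list of 42 genes for class II partners, the enhanceosome, CIITA regulators, antigen processing and the neighbours of the class II genes and CIITA was used, of which 41 were tested and CTSL was not analysed here. In MCL against GCB DLBCL 10 of the 41 were higher and 2 lower, that is 29.3% called, near the 23.7% of all genes. With both library classes included, the median difference of the list was 0.38, against -0.02 over all genes. The median of the whole list within the first class was not computed, so this value cannot be told apart from library class. LGMN, an endosomal protease that starts invariant chain cleavage, was 11.13 ± 1.59 in MCL and 7.07 ± 2.79 in GCB DLBCL (4.06 ± 0.93 SE, adjusted p = 0.00370). IRF4, a factor of activated B and plasma cells, was 12.71 ± 0.96 in MCL and 9.28 ± 4.16 in GCB DLBCL (3.43 ± 1.10, adjusted p = 0.0248). MARCHF8, a ligase that ubiquitinates membrane proteins, had a difference of -1.17 ± 0.25 (adjusted p = 0.00229). These 3 were the genes of the list still called in the first library class, 7.32% of the 41 against 2.83% of all genes. The other called genes were CTSB, CTSD, DEXI, IRF1, NFYB, NUBP1, PRDM1 and PSMB8, higher in MCL, and IFI30, lower. In the first class NUBP1 changed sign, to -0.09, DEXI shrank from 2.465 to 0.44 and IRF1 from 1.79 to 0.60.

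CTSB, the endosomal protease cathepsin B, was nearly absent in BL. It had 26 reads in Raji, 8 in Ramos and 0 in Daudi, values of 5.58, 5.25 and 4.55. The other lines ran from 9.75 to 12.51 in MCL, 7.58 to 11.43 in ABC DLBCL and 6.32 to 13.56 in GCB DLBCL. Every BL value was thus lower, but the nearest line, OCI-Ly7 at 6.32, had 4 reads of CTSB in 3.27 M. How many of all genes part BL from the other lines in this way was not counted. By limma MCL minus BL was 6.22 ± 0.86 (adjusted p = 6.04e-05), BL minus ABC DLBCL was -5.28 ± 0.93 (adjusted p = 0.00816) and BL minus GCB DLBCL -4.54 ± 0.84 (adjusted p = 0.0141). The first call held in all 18 alternatives, the second was lost in 3 of them and the third in 4. In BL the DR, DP and DQ chains, apart from HLA-DQA1 and HLA-DQB1 in Ramos, were at -0.93 from the median or above. The remaining call of the list was SPI1, the factor PU.1, with ABC minus GCB DLBCL at -1.55 ± 0.39 (adjusted p = 0.0498), a call lost in the first library class (adjusted p = 0.0630) and in 13 of 18 alternatives. TAP2 passed the F test alone (adjusted p = 0.0264), and not in the first class (adjusted p = 0.136).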

How the data were processed

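RNA of 34 lymphoma lines was analysed from 1 table that the authors deposited, with variance-stabilised read counts in log2 units for 31975 genes. The submitters' processing notes name STAR 2.5.3a, R 3.6.1, DESeq2 1.26.0 and GRCh38; the read counter, annotation release and strand setting are not given in the sources used here. Inverting the transform gave whole reads for 100% of values within 0.05. The value of 1 read was 4.70 in the deepest and 5.63 in the shallowest library. Genes with at least 3 lines over 1 log2 unit above the lowest value were tested in a limma 3.58.1 model (R 4.3.3) of the 34 lines with a mean for each pathology and a trended prior. The moderated F and 6 contrasts were two-sided, with Benjamini-Hochberg adjustment over 22167 genes and a threshold of 0.05; the fit was tested on simulated data. Named genes were the members, called genes of fixed lists, genes needed for lines with low members, and the 8 genes most like HLA-DRA and CIITA by Pearson's r; a B-cell marker and a gene with high r to HLA-DRA are not reported here. Members, lists and library classes were chosen with earlier results of these data known. Folds use reads scaled to library depth with exact Poisson intervals. Figures were drawn with matplotlib 3.10.9. Alternatives changed library set, covariate, scaling, filter, tool (limma-voom on recovered reads) and single lines.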

Additional observations from a re-analysis of the deposited data

Results flagged for a closer look

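Of 20 groups of 6 ABC DLBCL lines checked for a single line far from the others, 4 stood out, where chance gives about 1 in 20. HLA-DRA was 11.40 in OCI-Ly10, against 15.04 to 15.62 in the other ABC DLBCL lines, a gap of 0.863 of the whole range. HLA-DRB1 was 10.16 in OCI-Ly10, against 12.74 to 13.96 in the others (0.679), and TAP1 was 8.08 in OCI-Ly10, against 10.67 to 11.89 (0.680). All 3 genes lie in the low stretch of chromosome 6 in that line and are not independent of each other. HLA-DQA2, a close copy of HLA-DQA1, was 12.32 in MD903, against 5.66 to 8.05 in the others (0.642); its part in the reads of HLA-DQA1 was not tested.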

How the results depend on the processing

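No paired analysis was possible because the samples are different lines with 1 library each. Single BL and ABC DLBCL lines, OCI-Ly10 among them, were left out in turn, and no line was left out for its class II level. The count of members called in ABC against GCB DLBCL was 1, HLA-DOB, after quantile normalization (adjusted p = 0.0409) and with a stricter filter (0.0434), and 0 to 1 when single BL or ABC DLBCL lines were left out, with 1 without MD903 (0.0336) and 1 without NU-DUL-1 (0.0414). In BL against ABC DLBCL it was 1, HLA-DOB, with limma-voom on recovered reads (0.0478). By the F test it was 0 in the first library class (HLA-DOB adjusted p = 0.0725) and 0 without libraries under 10 M reads (0.0574). The cause of these changes was not tested. HLA-DRA in MCL against GCB DLBCL was -0.016 in the first class and without libraries under 10 M reads, and NUBP1 -0.087 in those settings and -0.105 with library class as a covariate. With a limit of 2 log2 units 11 lines had a low member and 3 had low CIITA (DB, HT and Ramos). The lines with 5 or more low members numbered 3 or 4 under the alternatives, the fourth being OCI-Ly10. Over all genes the calls ranged from 522 to 5902 for MCL against GCB DLBCL (5245 as reported) and from 589 to 3755 for the F test (2937). For the others they ranged from 41 to 341 for MCL against BL (259), 91 to 197 for MCL against ABC DLBCL (153), 8 to 119 for BL against ABC DLBCL (26), 10 to 75 for BL against GCB DLBCL (34) and 25 to 431 for ABC against GCB DLBCL (161). Depth limits what low counts show: in the 8 libraries under 10 M reads a value of a few reads, as in DB and OCI-Ly1, carries a wide interval.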
